A study of Mus musculus with 6 samples.

Results

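Galectins are lectins that bind beta-galactosides, mostly N-acetyllactosamine units on glycoproteins and glycolipids. They are made in the cytosol and leave the cell without a signal peptide, so that they act both outside the cell, where they cross-link glycans of the cell surface and the matrix, and inside it. Galectin-1 and galectin-2 have a single carbohydrate recognition domain and form dimers, galectin-3 joins such a domain to a long flexible tail, and galectin-4, galectin-8 and galectin-9 carry a pair of different domains on 1 chain. In the mouse, galectin-1 is known from the trophectoderm, the outer epithelium of the blastocyst, around implantation. The 6 genes described here are Lgals1, Lgals2, Lgals3, Lgals4, Lgals8 and Lgals9, out of 30175 genes measured by expression microarray in early embryos. They were chosen by name as a family, with the values of Lgals1 in these arrays already known, and each had exactly 1 row in the table. The anti-TEAD4 differences of Lgals1 are therefore given as a description, with no test.

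Trim-Away removes a protein from living cells with an antibody and TRIM21, a ubiquitin ligase that recognizes bound IgG and has the captured protein degraded by the proteasome. Zygotes of B6C3F1 females mated with CD1 males were injected with mCherry-Trim21 mRNA and dextran beads together with anti-TEAD4 (antibody against the transcription factor TEAD4, which acts in the trophectoderm lineage), with anti-GFP (an antibody that has no target in these wildtype embryos), or with no antibody (Trim21 mRNA). Each group gave 2 pools, a and b, of 10 embryos, all injected on 1 day and lysed 72 h after injection, after 96 h in culture and at 4 dpc, and each pool was hybridized to 1 array. The labels call the anti-TEAD4 pools morulae/blastocysts, with a cavity that was absent or small and aberrant, and describe a normal cavity in the control pools. The depletion of TEAD4 by this method was transient and incomplete per the study, RNA was extracted without DNase digestion, and p-values measure only the spread between these pools. In a pooled sample, fewer cells of a type and less RNA per cell cannot be told apart.

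Values are log2 intensities, in which a difference of 1 is a 2-fold difference. The number of arrays limits their precision. Anti-TEAD4 pool a stood apart from the other arrays: its mean correlation with them was 0.966, against 0.982 to 0.986 for the other arrays, and its median was 4.5, against 4.24 in anti-TEAD4 pool b and 4.19 to 4.29 in the control pools. Of the trophectoderm marker list, 4 of 5 measured genes had both anti-TEAD4 pools below all 4 control pools, against 7.68% of all genes. Krt8, Krt18 and Cdx2 were lower in both pools by more than the range of the control pools. Eomes had 8.37 and 9.79 in anti-TEAD4 pools and 9.80 to 9.97 in control pools, so that only its pool a was clearly low. The list summed to 35970 to 69430 AU (linear intensity, 2 to the power of the log2 value) in anti-TEAD4 pools. In control pools it summed to 270800 to 277400 AU, most of it from Krt8 and Krt18. The inner cell mass list summed to 74130 to 122300 AU in anti-TEAD4 pools and 87260 to 109200 AU in control pools, most of it from Nanog. In that list Sox2 had 9.21 and 9.22 in anti-TEAD4 pools and 8.32 to 8.97 in control pools, and Sall4 had 8.25 and 9.35 in anti-TEAD4 pools and 9.08 to 9.85 in control pools. Markers of cumulus cells, which surround the egg, summed over 8 of 8 genes to 142.6 to 206.5 AU in anti-TEAD4 pools and 137.7 to 150 AU in control pools, with list medians of 4.02 to 4.45 and 3.83 to 4.00 that lay near or below the array medians. Markers of macrophages and blood summed over 4 of 6 genes to 577.4 to 814 AU in anti-TEAD4 pools, against 201.7 to 555.8 AU in control pools, most of it from Cd68. The part of these cell types and of pool a in the galectin values was not tested beyond the values given without each pool.

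Lgals4 and Lgals8 were the galectins on which the 2 anti-TEAD4 pools parted in the same way while both anti-GFP pools lay above both Trim21 mRNA pools, and the bases before their starts are printed for that reason. RefSeq windows of 250 bases before 1 annotated start were at hand for Lgals2, Lgals3, Lgals4, Lgals8 and Lgals9, 5 of the 6 members (build GRCm38.p6), and capitals mark the letters CCAAT or their reverse complement. The Lgals4 window is chr7:28833544-28833793 on the plus strand, and the Lgals8 window is chr13:12461739-12461988 on the minus strand. Both genes extend beyond these starts in the annotation, and other starts were not searched.
Lgals4: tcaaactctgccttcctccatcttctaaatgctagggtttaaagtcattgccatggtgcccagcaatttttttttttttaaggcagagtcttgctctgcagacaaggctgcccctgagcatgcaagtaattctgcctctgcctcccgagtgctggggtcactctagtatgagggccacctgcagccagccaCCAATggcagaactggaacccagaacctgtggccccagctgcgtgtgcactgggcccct
Lgals8: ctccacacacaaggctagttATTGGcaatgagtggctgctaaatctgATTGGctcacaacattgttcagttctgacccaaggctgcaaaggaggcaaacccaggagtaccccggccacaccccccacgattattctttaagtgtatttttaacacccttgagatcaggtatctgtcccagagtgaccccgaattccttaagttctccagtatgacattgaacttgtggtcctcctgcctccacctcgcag
CCAAT, searched on both strands, occurred in 3 of the 5 galectin windows (Lgals3, Lgals4 and Lgals8) and in 33.8% of all 32851 windows of this length. The core letters bound by TEAD factors, CATTCC on either strand, occurred in 0 of these 5 windows, which do not include Lgals1, and in 12.6% of all windows. The GC box GGGCGG, on either strand, occurred in 1 of the 5 windows (Lgals3) and in 32.7% of all windows. Neither of the other 2 motifs occurred in the windows printed, and a match is a description of letters and not of a bound site.

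Among the single-domain galectins, Lgals1 was far lower in both anti-TEAD4 pools and Lgals2 overlapped between groups. Lgals1 had log2 intensities of 11.37 and 11.78 in anti-TEAD4 pools a and b, 15.21 and 15.82 in anti-GFP pools a and b, and 15.57 and 15.42 in Trim21 mRNA pools a and b. Both anti-TEAD4 pools lay below all control pools, by a margin several times the 0.61 between the lowest and the highest control pool. On the linear scale this was 3082 ± 615 AU in anti-TEAD4 pools, 47880 ± 14100 AU in anti-GFP pools and 46240 ± 3400 AU in Trim21 mRNA pools (SD, n = 2 pools each). The log2 difference of anti-TEAD4 was -3.92 against Trim21 mRNA and -3.94 against anti-GFP. Against both control groups together it was -3.93, which is 15.2-fold lower, and 1 of the 30175 genes, Tspan8, had a lower difference. The 2 anti-TEAD4 pools were 4.13 and 3.73 below the mean of the control pools, so that pool a alone did not carry the difference. The trophectoderm marker list was lower in the same pools, with a median difference of -1.89, and its part in the difference of Lgals1 was not tested. Between the control groups, whose Lgals1 values were also known at the choice, anti-GFP differed from Trim21 mRNA by 0.02 (95% interval -0.64 to 0.68, limma adjusted p = 1).

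**Figure D1:**
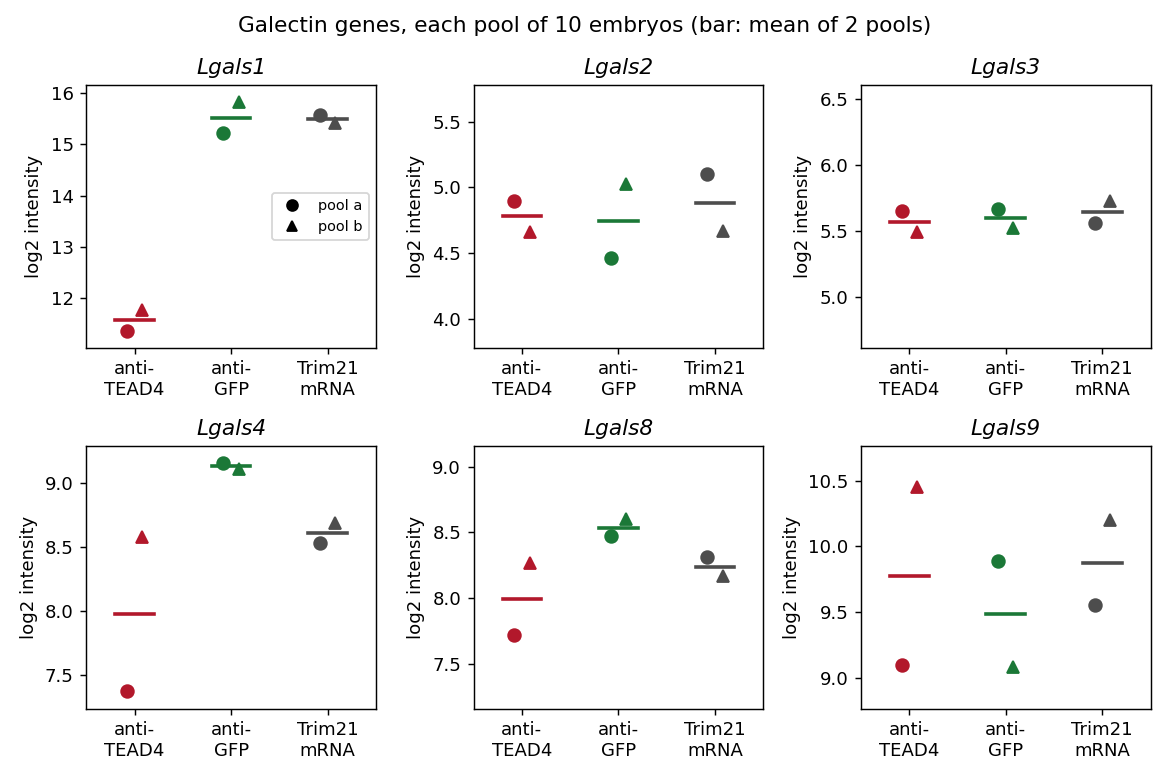
Log2 intensity of the 6 galectin genes in each pool of 10 embryos (circles, pool a; triangles, pool b), by group, with the group mean as a bar. Each panel has its own vertical axis. The anti-TEAD4 pools of Lgals1, at 11.37 and 11.78, lie below all 4 control pools, and those of the other 5 genes overlap the control pools.

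Lgals2, a close relative of Lgals1 best known from the gut, had 4.90 and 4.66 in anti-TEAD4 pools, 4.46 and 5.03 in anti-GFP pools and 5.10 and 4.67 in Trim21 mRNA pools. The groups overlapped, and all pools lay close to the array medians of 4.19 to 4.5. The difference of anti-TEAD4 was -0.11 against Trim21 mRNA (95% interval -0.76 to 0.55) and 0.04 against anti-GFP (95% interval -0.62 to 0.69), with limma adjusted p-values of 0.919 and 0.974. So close to the array medians, a fall of the size seen for Lgals1 could not have been measured, and these intervals do not address it.

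Lgals1 and Lgals2 lie near each other on chromosome 15, with 3 protein-coding genes, Gga1, Sh3bp1 and Pdxp, between them in the RefSeq order. These neighbours were looked up after the galectin values were seen. Pdxp encodes a phosphatase for pyridoxal phosphate and is the neighbour next to Lgals1. It had 5.09 and 5.19 in anti-TEAD4 pools, 5.70 and 6.36 in anti-GFP pools and 6.06 and 5.78 in Trim21 mRNA pools. Both anti-TEAD4 pools lay below all control pools, as for 7.68% of all genes, and the control groups overlapped. Sh3bp1 had 7.62 and 9.41 in anti-TEAD4 pools, 10.05 and 9.38 in anti-GFP pools and 9.92 and 10.44 in Trim21 mRNA pools, and its pool b overlapped the controls. Gga1, a clathrin adaptor of the Golgi, had 5.36 and 7.05 in anti-TEAD4 pools and 6.79 to 7.20 in control pools, again with pool a alone low. On the other side of Lgals1, Nol12 had 8.15 and 8.95 in anti-TEAD4 pools and 8.42 to 8.67 in control pools. Its mean difference of 0.00 thus averaged a pool a below all control pools and a pool b above them. Triobp differed by -0.05 between anti-TEAD4 and both control groups.

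Lgals3, the chimeric galectin, which gathers on damaged endosomes and lysosomes in many cell types, had nearly the same intensity in all 6 pools. It had 5.65 and 5.49 in anti-TEAD4 pools, 5.67 and 5.52 in anti-GFP pools and 5.56 and 5.73 in Trim21 mRNA pools. The groups overlapped and the control pools spanned 0.21. The difference of anti-TEAD4 was -0.08 against Trim21 mRNA (95% interval -0.47 to 0.32) and -0.03 against anti-GFP (95% interval -0.42 to 0.37), with limma adjusted p-values of 0.903 and 0.97. These were the narrowest intervals of the galectins tested. All pools lay not far above the array medians of 4.19 to 4.5. A fall of the size seen for Lgals1 could therefore not have been measured here either.

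Of the galectins with a pair of domains, Lgals4 and Lgals8 were low in anti-TEAD4 pool a and near the controls in pool b, and Lgals9 varied within every group. Lgals4, a galectin of gut epithelium, had 7.37 and 8.58 in anti-TEAD4 pools, 9.16 and 9.11 in anti-GFP pools and 8.53 and 8.69 in Trim21 mRNA pools. Pool b of anti-TEAD4 lay between the 2 Trim21 mRNA pools, so that the groups overlapped. In linear units Lgals4 averaged 274.1 ± 154 AU in anti-TEAD4 pools, 562.3 ± 13.8 AU in anti-GFP pools and 391.3 ± 30.7 AU in Trim21 mRNA pools (SD, n = 2 pools each).

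The log2 difference of Lgals4 was -0.64 for anti-TEAD4 against Trim21 mRNA (limma adjusted p = 0.809), -1.16 against anti-GFP (unadjusted p = 0.0278, limma adjusted p = 0.717) and -0.90 against both control groups (unadjusted p = 0.0413, limma adjusted p = 0.579). None passed the threshold of 0.05 after adjustment. Pool a was 1.5 and pool b 0.29 below the mean of the control pools, and with pool a left out the difference from both control groups was -0.29. With pool b left out it was -1.5, which rests on anti-TEAD4 pool a alone. Lgals6, a close copy of Lgals4 carried by some mouse strains, was not matched to a row, and whether its transcripts bind the Lgals4 probes was not tested.

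Lgals8, which marks damaged vesicles, had 7.72 and 8.27 in anti-TEAD4 pools. In the controls it had 8.47 and 8.60 in anti-GFP pools and 8.31 and 8.17 in Trim21 mRNA pools. Its anti-TEAD4 pool a was below all control pools, and its pool b was between the 2 Trim21 mRNA pools. The difference of anti-TEAD4 was -0.25 against Trim21 mRNA (95% interval -0.80 to 0.31, limma adjusted p = 0.814), -0.54 against anti-GFP (95% interval -1.09 to 0.01, limma adjusted p = 0.738) and -0.39 against both control groups (95% interval -0.87 to 0.09, limma adjusted p = 0.619). With pool a left out, the difference from Trim21 mRNA was 0.03. With pool b left out, that from both control groups was -0.67, which rests on anti-TEAD4 pool a alone.

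**Figure D2:**
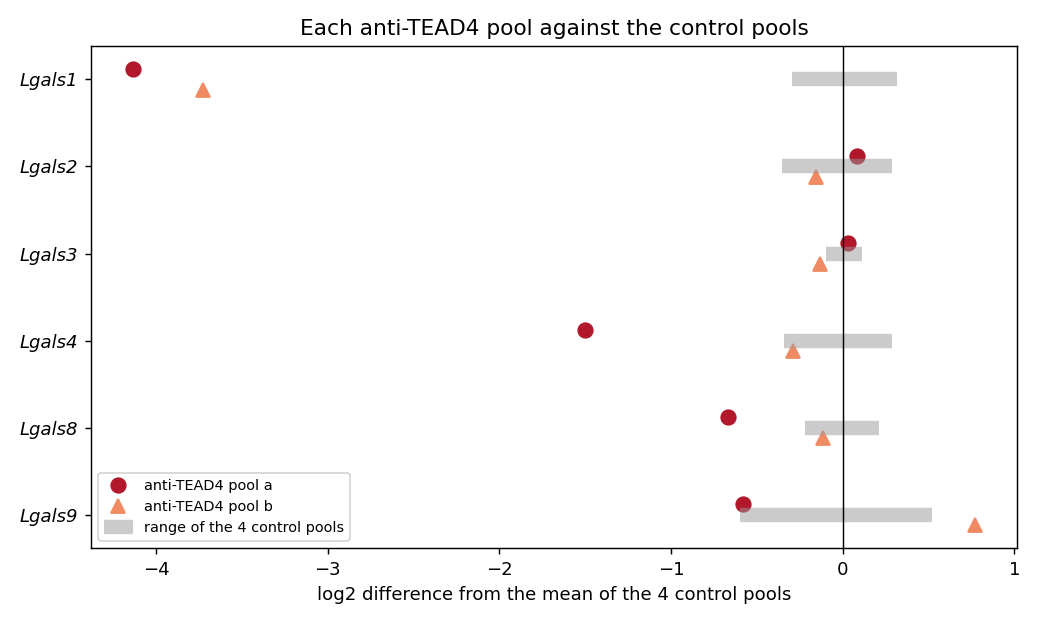
Log2 difference of each anti-TEAD4 pool from the mean of the 4 control pools, with the range of the control pools as a grey band around 0. Both pools of Lgals1 lie beyond the band, at -4.13 and -3.73, whereas for Lgals4 and Lgals8 pool a lies below it and pool b inside it.

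Lgals9, a galectin known for acting on immune cells, had 9.10 and 10.45 in anti-TEAD4 pools, 9.89 and 9.08 in anti-GFP pools and 9.55 and 10.20 in Trim21 mRNA pools. Every group had 1 pool high and 1 low, the groups overlapped, and pools of 1 group differed by up to 1.35. The difference of anti-TEAD4 was -0.10 against Trim21 mRNA (95% interval -1.43 to 1.23) and 0.29 against anti-GFP (95% interval -1.04 to 1.62), with limma adjusted p-values of 0.963 and 0.889. These were the widest intervals of the galectins tested, so that for Lgals9 a difference of 1 in either direction from Trim21 mRNA was not detectable with 2 pools per group.

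The 2 anti-TEAD4 pools thus differed from each other more for some galectins than for others. Pool a minus pool b was -1.35 for Lgals9, -1.21 for Lgals4, -0.55 for Lgals8 and -0.41 for Lgals1, against a median of 0.05 over all genes. It was 0.24 for Lgals2 and 0.16 for Lgals3. A value lower than that of Lgals9 was found for 4.22% of all genes, and lower than that of Lgals4 for 5.45%. For Lgals8 and Lgals1 the shares were 17% and 21.4%, so that many genes parted by more.

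Across all genes, limma called 0 of 30175 (0%) at an adjusted p under 0.05 in each of the 4 comparisons, and so 0 of the 5 galectins other than Lgals1. At an unadjusted p under 0.05, anti-TEAD4 against Trim21 mRNA had 6.5% of all genes and 0 of the 5 galectins other than Lgals1. Anti-TEAD4 against anti-GFP had 6.6% of all genes and 1 of these 5, and anti-TEAD4 against both control groups had 8.51% and 1 of these 5, in each case Lgals4. Both anti-TEAD4 pools lay below all 4 control pools for 7.68% of all genes and 0 of the 5 galectins other than Lgals1. Lgals1 itself, whose values were known when the family was chosen, also had both pools below. Both pools lay above all 4 control pools for 0 galectins and 11.4% of all genes. With 2 pools against 4, a two-sided exact permutation test cannot go below p = 0.0667.

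Between the control groups, the galectins did not pass the test in any case. At an unadjusted p under 0.05, anti-GFP against Trim21 mRNA had 1.09% of all genes and 0 galectins. Both anti-GFP pools lay above both Trim21 mRNA pools for 2 galectins, Lgals4 and Lgals8, and for 17.4% of all genes, and below them for 0 galectins and 11.3% of all genes. The differences were 0.53 for Lgals4 (95% interval -0.45 to 1.5) and 0.30 for Lgals8 (95% interval -0.26 to 0.85), each with a limma adjusted p of 1. The comparisons of anti-TEAD4 and of anti-GFP with Trim21 mRNA share the Trim21 mRNA pools.

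**Figure D3:**
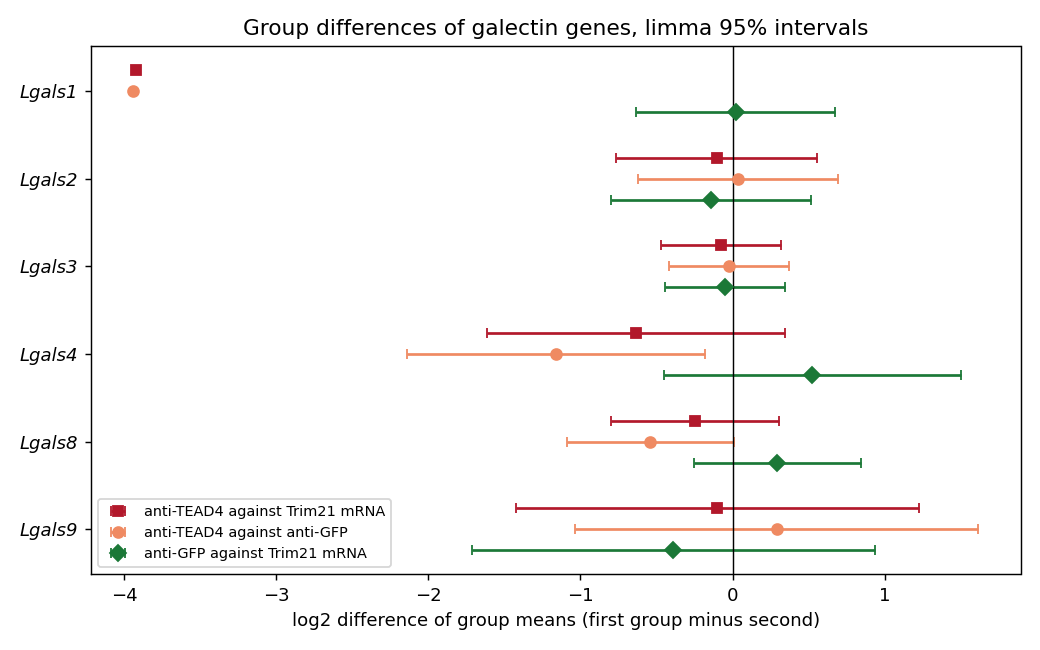
Log2 differences of group means for the 6 galectins in 3 comparisons, with 95% intervals from limma, which are left off the anti-TEAD4 differences of Lgals1 (squares, anti-TEAD4 against Trim21 mRNA; circles, anti-TEAD4 against anti-GFP; diamonds, anti-GFP against Trim21 mRNA). The interval of Lgals4 against anti-GFP runs from -2.14 to -0.18, and the intervals of Lgals2, Lgals3, Lgals8 and Lgals9 all include 0.

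The genes whose pattern was most like that of Lgals1 were Slc44a4, Id2, Krt18, Tmprss2 and Slc6a14, ranked by Pearson's r of log2 values over the 6 arrays among 422 named genes whose range was at least 50% of that of Lgals1. Pearson's r was 0.999 for Slc44a4, 0.998 for Id2, 0.996 for Krt18, 0.992 for Tmprss2 and 0.99 for Slc6a14, and these values rest on the gap between anti-TEAD4 and control pools of the same arrays. Slc44a4, a choline transporter-like protein, had 6.09 and 6.60 in anti-TEAD4 pools, 9.01 and 9.53 in anti-GFP pools and 9.26 and 9.18 in Trim21 mRNA pools. Id2, an inhibitor of basic helix-loop-helix factors, had 10.35 and 10.92 in anti-TEAD4 pools, 13.69 and 13.99 in anti-GFP pools and 13.82 and 13.82 in Trim21 mRNA pools. Krt18, a keratin of the trophectoderm and a member of its marker list, had 14.69 and 15.28 in anti-TEAD4 pools, 17.37 and 17.60 in anti-GFP pools and 17.50 and 17.34 in Trim21 mRNA pools. Tmprss2, a membrane serine protease, had 5.09 and 5.18 in anti-TEAD4 pools and 7.48 to 8.25 in control pools, and Slc6a14, an amino acid transporter, had 5.21 and 5.58 in anti-TEAD4 pools and 6.99 to 7.61 in control pools.

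**Figure D4:**
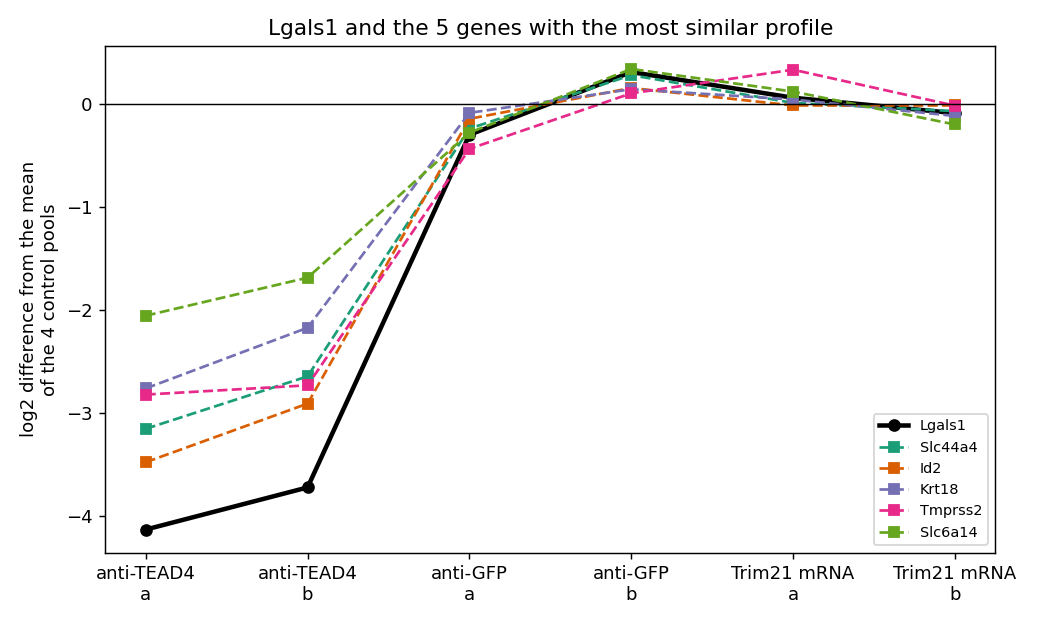
Log2 difference of each pool from the mean of the 4 control pools for Lgals1 (black) and the 5 genes with the highest Pearson's r to it over the 6 arrays. Lines only link the points of 1 gene. The anti-TEAD4 pools of Lgals1 lie at -4.13 and -3.73, below those of the other 5 genes.

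None of the further galectin genes passed a test. Of Lgals7, Lgals12, Lgalsl, Grifin and the ligand gene Lgals3bp, 0 of 5 had both anti-TEAD4 pools below all control pools (against 7.68% of all genes) or above them (against 11.4%). In the comparison of anti-TEAD4 with both control groups, 0 passed an unadjusted limma p under 0.05, against 8.51% of all genes. Lgals7, a galectin of stratified epithelia that neighbours Lgals4 on chromosome 7, had 8.20 and 7.68 in anti-TEAD4 pools, 7.13 and 7.87 in anti-GFP pools and 8.15 and 8.15 in Trim21 mRNA pools. Lgals12, known from fat cells, had 6.00 and 5.36 in anti-TEAD4 pools and 5.64 to 6.07 in control pools. Lgalsl, a galectin-like gene, had 6.75 and 7.37 in anti-TEAD4 pools and 7.15 to 7.38 in control pools. Grifin, a galectin-related lens protein, had 4.13 and 4.32 in anti-TEAD4 pools and 4.29 to 4.46 in control pools. Lgals3bp, a secreted glycoprotein that binds galectins, had 4.14 and 4.03 in anti-TEAD4 pools and 4.13 to 4.23 in control pools. Both lay near or below the array medians of 4.19 to 4.5, where a fall could hardly be measured. The median difference of these 5 genes was -0.17, against 0.06 over all genes.

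Among enzymes that branch and extend the glycans which galectins bind, B3gnt5, Mgat4a and B4galt5 had no overlap between anti-TEAD4 and control pools and lower values in both anti-TEAD4 pools. Of 14 measured of 16 listed, 5 had both anti-TEAD4 pools below all control pools (against 7.68% of all genes) and 1, C1galt1, above (against 11.4%). At an unadjusted limma p under 0.05, 4 were lower (B3gnt5, B4galt5, Mgat4a and Mgat5) and 0 higher, against 8.51% of all genes in either direction, and 0 passed after adjustment. Their median difference was -0.09, against 0.06 over all genes. B3gnt5, which starts lacto-series glycolipids, had 5.87 and 6.21 in anti-TEAD4 pools, 7.46 and 7.76 in anti-GFP pools and 7.07 and 7.64 in Trim21 mRNA pools, a difference of -1.44 (SE 0.222, limma adjusted p = 0.256). Mgat4a, which adds a branch to N-glycans, had 5.21 and 5.42 in anti-TEAD4 pools and 6.04 to 6.90 in control pools, a difference of -1.04 (SE 0.24, limma adjusted p = 0.399). Both genes were low in both anti-TEAD4 pools. B4galt5, a galactosyltransferase named here after its values were seen, had 6.00 and 6.25 in anti-TEAD4 pools and 6.54 to 7.24 in control pools, a difference of -0.78 (SE 0.154, limma adjusted p = 0.34).

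Mgat5, which makes the N-glycan branch that carries much of the N-acetyllactosamine bound by galectins, had 6.60 and 8.22 in anti-TEAD4 pools, 9.04 and 8.45 in anti-GFP pools and 8.47 and 9.29 in Trim21 mRNA pools (difference -1.40, SE 0.511, limma adjusted p = 0.573). Gcnt1, the core 2 branching enzyme of O-glycans, had 4.73 and 6.06 in anti-TEAD4 pools and 6.08 to 6.28 in control pools (difference -0.81, SE 0.37, limma adjusted p = 0.611). For both, pool b lay just under the lowest control pool and pool a well under it. With pool a left out, 5 of the 14 lay below all control pools and 3 above, with a median of -0.08, where 18.5% of all genes lay below and 26.3% above. With pool b left out, 8 lay below and 3 above, with a median of -0.28, where 28.7% of all genes lay below and 40.6% above.

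Sialyltransferases, which cap these glycans and can hide them from galectins, were measured for 7 of 7 listed genes. Of these, 0 had anti-TEAD4 pools below all control pools (against 7.68% of all genes) and 1, St3gal1, above (against 11.4%). St3gal1 had 3.69 and 3.67 in anti-TEAD4 pools and 3.46 to 3.65 in control pools, below all array medians. None passed an unadjusted limma p under 0.05, against 8.51% of all genes, and their median difference was 0.06, against 0.06 over all genes. The largest differences were -0.29 for St3gal5, -0.20 for St3gal3, 0.19 for St3gal4 and 0.16 for St3gal6.

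Of 21 measured of 22 listed binding partners of galectins, 2 (Itgav and Lama1) had anti-TEAD4 pools below all control pools, against 7.68% of all genes, and 2 (Tfrc and Lamp2) above, against 11.4%, with a median difference of -0.05, against 0.06 over all genes. Tfrc, the transferrin receptor, had 8.01 and 8.96 in anti-TEAD4 pools, 7.48 and 7.66 in anti-GFP pools and 7.28 and 7.07 in Trim21 mRNA pools, a difference of 1.11 (SE 0.283, unadjusted p = 0.00908, limma adjusted p = 0.442). It was the only binding partner to pass an unadjusted p under 0.05, against 8.51% of all genes. Mcam, a cell adhesion glycoprotein, had 6.97 and 8.55 in anti-TEAD4 pools, 7.02 and 5.72 in anti-GFP pools and 6.86 and 6.62 in Trim21 mRNA pools (difference 1.21, SE 0.549, limma adjusted p = 0.61), and its pool a overlapped the controls. Slc3a2, which encodes the CD98 heavy chain, had 7.47 and 9.27 in anti-TEAD4 pools and 8.86 to 9.36 in control pools, with a difference of -0.71 (SE 0.502, limma adjusted p = 0.677). Itga5, a subunit of the fibronectin receptor, had 8.37 and 10.11 in anti-TEAD4 pools and 9.45 to 10.27 in control pools, with a difference of -0.66 (SE 0.489, limma adjusted p = 0.686). Both were low in pool a alone. Among the 21 genes, 4 lay below all control pools and 6 above with pool a left out, where 18.5% of all genes lay below and 26.3% above. With pool b left out, 11 lay below and 6 above, where 28.7% of all genes lay below and 40.6% above.

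**Figure D5:**
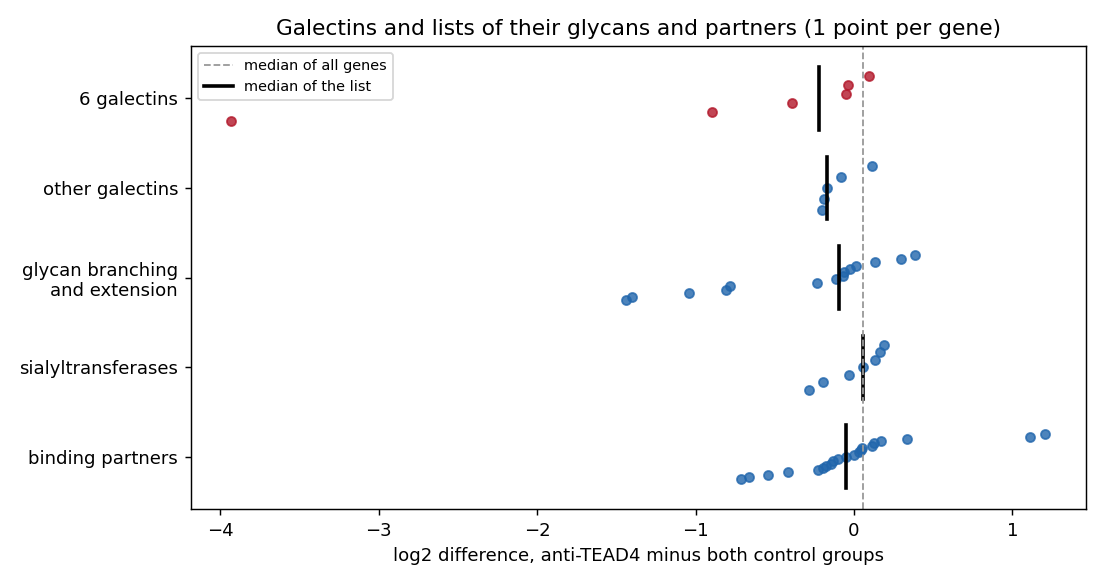
Log2 difference of anti-TEAD4 from both control groups for each gene of the 6 galectins, the other galectins and the lists of glycan enzymes and binding partners, with the median of each list (black bar) and of all genes (dashed line, 0.06). Lgals1, at -3.93, lies apart from every other gene plotted, of which B3gnt5, at -1.44, is the next lowest.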

How the data were processed

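The arrays were Affymetrix Mouse Transcriptome Arrays. The authors applied robust multiarray averaging with Affymetrix software (Expression Console; version not given in the sources used here) and deposited log2 intensities with 2 decimals, so that background correction, normalization and probe summarization stay as deposited. The column of 1 array holds 1 value that no log2 intensity can take, and its unit was therefore recorded as other before that row was left out of 65956. Of the 65955 rows used, 1 symbol was paired with 30637, more than 1 with 2176 and none here with 33142. The brightest row with 1 symbol stood for each of 30175 genes, with no filter on dim genes. The files name no genome build.

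Means of 3 groups were fitted to all 6 arrays with limma 3.58.1 in R 4.3.3, on 3 residual and 2.517 prior degrees of freedom, with Benjamini-Hochberg adjustment over all genes and a threshold of 0.05. The methods name an analysis of variance, which was run without moderation as an alternative. Other alternatives were leaving out each array, a replicate block, only the groups compared, an intensity trend, the methods' t-test, median centring, quantile normalization, leaving out dim genes, and the mean of a gene's rows. The steps were tested on simulated data. The members and all lists were chosen with earlier results of these data known. Named genes are the 6 galectins, the other galectins, up to 4 genes per list with the largest difference from both control groups, and the 5 most like Lgals1. Cell type markers were read as sums over each list; for primitive endoderm, 3 of 4 genes were measured and their median difference was 0.19. Gata3 shares its row with another symbol and was not used. Lists without each anti-TEAD4 pool, the promoter windows and the neighbours of Lgals1 were added after seeing the data. Figures and sequence tables were made with pandas 2.3.3, numpy 2.4.6 and matplotlib 3.10.9 under Python 3.11.15.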

Additional observations from a re-analysis of the deposited data

How the results depend on the processing

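Counts of galectins other than Lgals1 at a limma adjusted p under 0.05, 0 in each comparison, stayed 0 except without anti-TEAD4 pool b. The fits without pool b hold 1 anti-TEAD4 array and assume that it varies like the other groups, so that their counts are not given. In them the difference of anti-TEAD4 from both control groups was -1.50 for Lgals4 and -0.67 for Lgals8. The count of galectins below all control pools, 1, ranged over 1 to 3 without single arrays and was 2 under quantile normalization; that above all control pools, 0, ranged over 0 to 1. Without pool a, 18.5% of all genes lay below and 26.3% above, for 2 and 1 galectins. Without pool b, 28.7% lay below and 40.6% above, for 3 and 0 galectins. The counts of galectins below all control pools include Lgals1, whose values were known when the family was chosen. Without single arrays, the difference of anti-TEAD4 from Trim21 mRNA ranged over -0.52 to 0.03 for Lgals8 and -0.78 to 0.58 for Lgals9, that of Lgals9 from both control groups over -0.58 to 0.77, and that of Lgals1 between anti-GFP and Trim21 mRNA over -0.29 to 0.33; the cause was not tested. Lgals1 differed from Trim21 mRNA by -4.13 to -3.72 over all alternatives. The letters a and b were not treated as pairs in the main fit. Correlations of pool deviations between groups ranged over -0.51 to 0.21, which cannot show whether the pools were prepared in pairs. With a replicate block the counts stayed 0, and Lgals4 against both control groups had a difference of -0.90 with an adjusted p of 0.631. Median centring shifted the anti-TEAD4 differences of all genes by -0.14 to -0.13. The precision is limited by 2 pools per group.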
